A study of Mus musculus with 6 samples.

Results

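The nuclear lamina and the LINC complex (linker of nucleoskeleton and cytoskeleton) were followed through 10 genes, listed by name: the lamin genes *Lmna*, *Lmnb1* and *Lmnb2*, the inner nuclear membrane genes *Emd* and *Tor1aip1*, the SUN protein genes *Sun1* and *Sun2*, and the nesprin genes *Syne1*, *Syne2* and *Syne3*. All 10 were among the 27179 genes of the count files and among the 16483 that passed the filter on low counts. The lamina is a mesh of intermediate filaments under the inner nuclear membrane. SUN proteins span that membrane, bind lamins on the inside and hold the KASH domains of nesprins in the space between the membranes, and nesprins reach into the cytoplasm and bind actin, microtubule motors or the cytolinker plectin. Skeletal muscle fibres hold many nuclei that are anchored and spaced along the fibre by this chain, and mutations of lamin A/C, emerin and nesprin genes are known causes of Emery-Dreifuss muscular dystrophy.

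RNA was sequenced from quadriceps muscle of 3 control mice (libraries B, C and D, genotype Control f/f) and 3 miDrp1KO mice (libraries A, E and F), all fed normal chow. In miDrp1KO mice, floxed *Dnm1l*, which encodes the mitochondrial fission GTPase Drp1, is removed by MerCreMer, a tamoxifen-activated Cre driven by the human skeletal actin promoter; controls carry floxed *Dnm1l* without losing it. Per the methods, both groups were male, on a C57BL/6J background, were given tamoxifen at 3 months of age and were sampled 3 weeks later. The promoter limits deletion to muscle fibres, so nuclei of other cells in the tissue keep the gene. In such bulk tissue, fewer cells of a type and less RNA per cell cannot be told apart. Every p-value here sets a group difference against variation between these mice. In edgeR and DESeq2 that variation is estimated for each gene partly from the other genes.

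Libraries held 13989588 to 62042255 counts, and ribosomal RNA genes took 1.48 to 24.4% of them. Levels are given as CPM, counts scaled to a common library size by the TMM method, and fold changes, standard errors (SE) and adjusted p come from edgeR's quasi-likelihood fit over all tested genes. *Dnm1l* was at 156, 114 and 140 CPM in control B, C and D and at 70.6, 81.3 and 66.2 CPM in miDrp1KO A, E and F. After TMM scaling every miDrp1KO library thus lay below every control library, while on total counts alone miDrp1KO E would lie above control C for *Dnm1l*. The log2 fold change of *Dnm1l* was −0.91 (SE 0.18, adjusted p = 0.362 in edgeR and 0.00302 in DESeq2). Defining fibre genes such as *Ttn*, *Neb*, *Acta1* and *Ckm* were present in all 6 libraries, as the tissue label requires. Their sum was taken over 8 marker genes that also include *Myh4*, *Myh1*, *Myh2* and *Pygm*. It came to 26.9, 20.9 and 27.5% of the TMM-scaled library size in control B, C and D and 19.9, 12.3 and 7.70% in miDrp1KO A, E and F. These are not shares of each library's own counts, as the TMM factors ran from 0.84 (control B) to 1.42 (miDrp1KO E). All 8 had a lower mean in miDrp1KO muscle. The 7 slow fibre markers summed to 441, 52.8 and 85.2 CPM in control and 81.2, 723 and 644 CPM in miDrp1KO muscle, in the same library order, and varied widely within both groups.

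None of the 10 genes passed the threshold of 0.05 on adjusted p in edgeR, where 2 of all 16483 tested genes did (0.0121%). Nor did any at an unadjusted p under 0.05, where 6.22% of all tested genes were lower and 4.68% higher in miDrp1KO muscle. DESeq2 gave 6 of the 10 an adjusted p and called 0 of them. Of the 10 log2 fold changes, 9 were below 0 and 1 above, with a median of −0.14 against 0.02 over all tested genes. In 2 of the 10, *Sun1* and *Syne1*, the 3 miDrp1KO libraries all lay below the 3 control libraries, as did those of 10.3% of all tested genes. In 0 of the 10 they all lay above, against 7.67% of tested genes. Every statement on overlap rests on TMM-scaled levels, with factors from 0.84 (control B) to 1.42 (miDrp1KO E). On total counts alone, miDrp1KO E would lie above every control for both *Sun1* and *Syne1*.

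Because *Syne1* and *Sun1* were the members whose groups did not overlap, and *Syne3* the member with a fold change above 0, the 250 bases before their start sites are shown. They come from RefSeq on GRCm38.p6, are written 5′ to 3′ on the gene's own strand, and end at the base before the start. Capitals mark matches, on either strand, to the E-box letters CANNTG, to GGGCGG (or CCGCCC) and to CCAAT (or ATTGG). *Syne1* has 3 starts in that table, of which the farthest upstream one (chr10:5550693-5550942, minus strand) and the most downstream one (chr10:5069064-5069313, minus strand), which lies within the span of the long transcript, are printed. For *Sun1* the first start in the table (chr5:139200387-139200636, plus strand) is given, and its window runs past the annotated start of the gene at 139200564. For *Syne3* it is the single start in the table (chr12:104998678-104998927, minus strand), which also lies within the annotated span of its gene. A second *Sun1* start (chr5:139214908-139215157, plus strand) is not printed.
Syne1 farthest upstream start: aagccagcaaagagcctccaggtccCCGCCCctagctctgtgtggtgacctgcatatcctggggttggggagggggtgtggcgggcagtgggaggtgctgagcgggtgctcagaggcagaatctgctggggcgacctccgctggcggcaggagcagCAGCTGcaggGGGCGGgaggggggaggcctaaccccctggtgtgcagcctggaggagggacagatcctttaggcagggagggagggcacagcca
Syne1 most downstream start: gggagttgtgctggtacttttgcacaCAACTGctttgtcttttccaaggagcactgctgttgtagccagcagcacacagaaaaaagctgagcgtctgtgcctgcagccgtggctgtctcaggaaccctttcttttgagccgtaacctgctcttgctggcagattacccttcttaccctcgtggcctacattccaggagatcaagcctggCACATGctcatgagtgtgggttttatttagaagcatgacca
Sun1 first start: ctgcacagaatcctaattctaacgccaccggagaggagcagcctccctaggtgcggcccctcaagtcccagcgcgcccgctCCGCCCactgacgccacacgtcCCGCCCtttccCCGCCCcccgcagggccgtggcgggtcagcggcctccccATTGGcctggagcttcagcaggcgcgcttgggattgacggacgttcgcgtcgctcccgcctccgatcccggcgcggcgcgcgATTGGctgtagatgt
Syne3 start: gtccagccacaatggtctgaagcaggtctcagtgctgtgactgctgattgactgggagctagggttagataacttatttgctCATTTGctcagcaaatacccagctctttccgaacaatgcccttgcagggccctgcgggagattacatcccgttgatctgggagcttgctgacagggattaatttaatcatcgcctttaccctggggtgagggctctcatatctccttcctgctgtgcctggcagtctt
The first *Sun1* window held 30 CpG dinucleotides and 70.0% G and C, where the median over all 32851 windows was 6 CpG and 52.4%. The second *Sun1* window held 1 CpG and 43.6% G and C. The farthest upstream *Syne1* window held 7 CpG and 68.0% G and C, the most downstream one 4 CpG and 50.8%, and the *Syne3* window 4 CpG and 51.2%. Upstream of the first *Sun1* start there were 3 GGGCGG and 2 CCAAT matches and no CANNTG match. The second *Sun1* window held 4 CANNTG, 1 CCAAT, 1 TATAAA and 0 GGGCGG matches. The farthest *Syne1* start had 2 GGGCGG matches and 1 CANNTG match, the most downstream one 2 CANNTG matches, and *Syne3* 1 CANNTG match. Across the 15 starts of the 9 members in the table, 11 windows held CANNTG, 7 GGGCGG, 5 CCAAT and 2 TATAAA, and 0 held a CArG box, the serum response factor motif. Among all windows these shares were 66.2, 32.7, 33.8, 12.4 and 1.5%. *Lmnb1* had no entry.

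A-type lamins come from *Lmna* (chromosome 3 of GRCm38, 88481148 to 88509932, minus strand), whose product is made in most differentiated cells, muscle fibres included. *Lmna* was at 46.5, 39.1 and 57.3 CPM in control B, C and D and at 36.1, 50.9 and 47.1 CPM in miDrp1KO A, E and F. The groups overlapped almost fully, with the highest library in control (D) and the lowest in miDrp1KO (A). The means were 47.6 ± 9.11 and 44.7 ± 7.70 CPM (SD, n = 3 each), and the log2 fold change was −0.09 (SE 0.19, adjusted p = 0.892 in edgeR). Its 95% interval allowed between 0.700 and 1.26 times the control level.

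B-type lamins stay farnesylated and attached to the membrane, and are encoded by *Lmnb1* (chromosome 18, 56707813 to 56753424, plus strand) and *Lmnb2* (chromosome 10, 80901363 to 80918245, minus strand). *Lmnb1* was at 5.78, 7.65 and 6.60 CPM in control B, C and D and at 6.66, 4.29 and 2.98 CPM in miDrp1KO A, E and F. miDrp1KO A lay inside the control range while E and F lay below it. Its log2 fold change of −0.52 (SE 0.28, adjusted p = 0.525 in edgeR) was the lowest of the 10, with means of 6.68 ± 0.940 and 4.64 ± 1.87 CPM (SD, n = 3 each) and an interval from 0.455 to 1.07 times control. *Lmnb1* rested on 62 to 396 counts per library. Leaving out miDrp1KO A moved its log2 fold change to −0.84 (adjusted p = 0.149 in edgeR), and leaving out F moved it to −0.27, so the value depended on which miDrp1KO mice were kept. *Lmnb2*, the least abundant member with as few as 41 counts in a library, was at 3.31, 2.99 and 2.58 CPM in control and 2.09, 3.24 and 2.83 CPM in miDrp1KO muscle. The groups overlapped (log2 fold change −0.11, SE 0.27, adjusted p = 0.916 in edgeR), and at this depth the interval still allowed 0.619 to 1.40 times control.

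Per kilobase of exon, A-type lamin outweighed both B-type lamins together in every library. The ratio of *Lmna* to *Lmnb1* plus *Lmnb2* was 2.92, 2.04 and 3.47 in control B, C and D and 2.26, 3.96 and 4.85 in miDrp1KO A, E and F. miDrp1KO E and F exceeded all controls and miDrp1KO A did not, so that the means of 2.81 ± 0.718 and 3.69 ± 1.31 (SD, n = 3 each) lay within the spread between mice.

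Emerin, encoded by *Emd* (chromosome X, 74254674 to 74261563, plus strand), is a LEM-domain protein of the inner membrane that binds lamins and the chromatin protein BAF. *Emd* was at 17.8, 20.8 and 21.2 CPM in control B, C and D and at 20.1, 14.8 and 23.1 CPM in miDrp1KO A, E and F. The miDrp1KO group held both the lowest library (E) and the highest (F), and its SD of 4.19 CPM exceeded that of 1.87 CPM in control. The means of 19.9 and 19.3 CPM gave a log2 fold change of −0.05 (SE 0.19, adjusted p = 0.953 in edgeR). The annotation lets *Emd* share 343 exonic bases (13.6%) with Gm14686 on the same strand, so its counts are uncertain to that extent.

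LAP1, encoded by *Tor1aip1* (chromosome 1, 156004599 to 156036480, minus strand), binds lamins and activates the ATPase torsinA. *Tor1aip1* was at 60.7, 64.5 and 54.5 CPM in control and at 67.9, 52.2 and 52.8 CPM in miDrp1KO A, E and F. The highest library was miDrp1KO A and the 2 lowest were E and F. The log2 fold change was −0.06 (SE 0.17, adjusted p = 0.932 in edgeR), with means of 59.9 ± 5.03 and 57.6 ± 8.94 CPM (SD, n = 3 each). It shares 699 exonic bases (12.9%) with its neighbour *Tor1aip2* on the opposite strand, and the strand setting of the counting was not given in the sources used here.

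**Figure D1:**
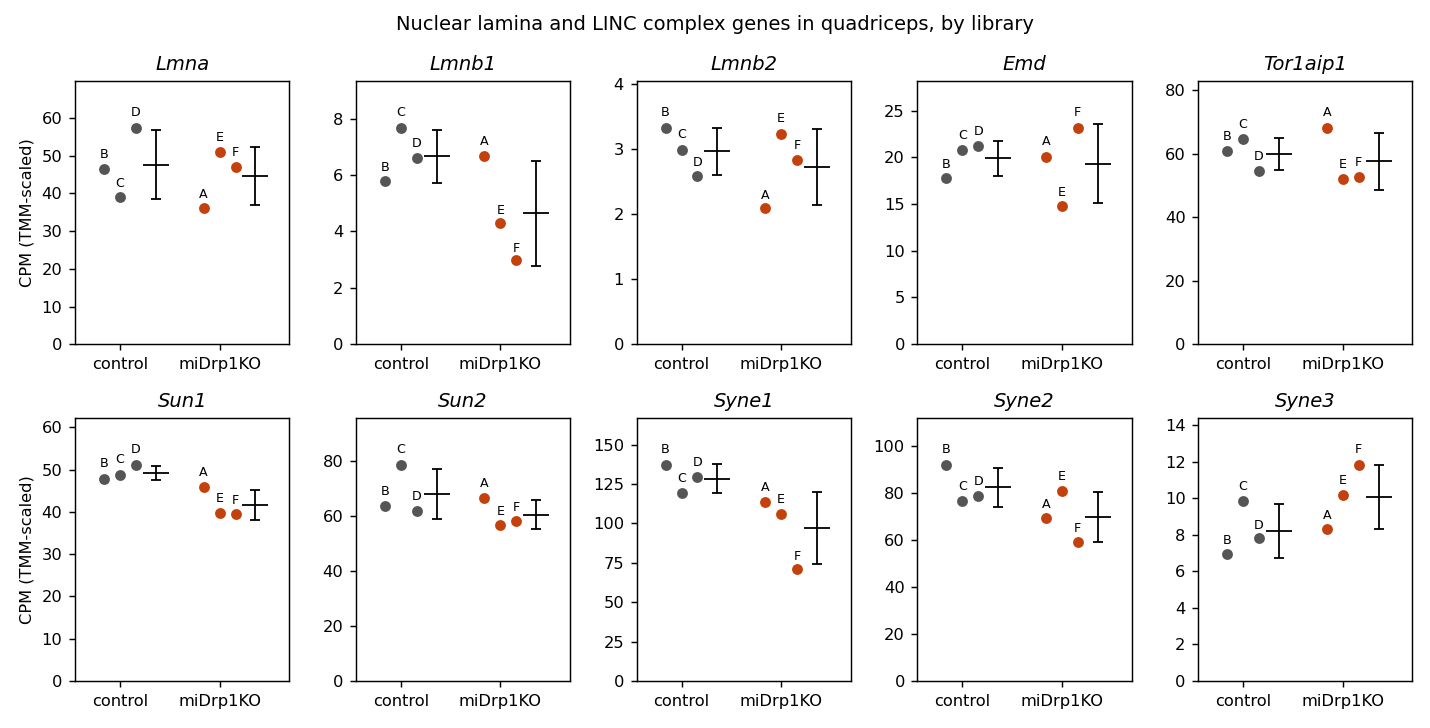
Level of each of the 10 genes in CPM on TMM-scaled library sizes (y axis, linear from 0) in control libraries B, C and D (grey) and miDrp1KO libraries A, E and F (orange), with the mean and SD of each group beside the points. Only for *Sun1* and *Syne1* did every miDrp1KO library lie below every control library, and for *Emd* the miDrp1KO points lie on both sides of the controls.

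*Sun1* and *Sun2* encode the SUN proteins of somatic cells, which are partly redundant in anchoring muscle nuclei. *Sun1* (chromosome 5, 139200564 to 139249839, plus strand) was at 47.9, 48.8 and 51.1 CPM in control B, C and D and at 45.8, 39.7 and 39.4 CPM in miDrp1KO A, E and F. After TMM scaling, all miDrp1KO libraries were below all controls, which were tightly grouped, and miDrp1KO A was only just below them. The means were 49.2 ± 1.64 and 41.6 ± 3.59 CPM (SD, n = 3 each; exact permutation test, two-sided, p = 0.1, the lowest that 3 mice against 3 can give). The log2 fold change was −0.24 (SE 0.15, adjusted p = 0.577 in edgeR, interval 0.674 to 1.06 times control), and ran from −0.29 to −0.15 over 13 alternatives with adjusted p from 0.353 to 0.915. It shares 302 exonic bases (3.98%) with 4930520M14Rik on the opposite strand.

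*Sun2* (chromosome 15, 79724068 to 79742536, minus strand) was at 63.5, 78.4 and 61.8 CPM in control and at 66.5, 56.7 and 58.2 CPM in miDrp1KO A, E and F. miDrp1KO E and F were below all controls, and A was inside the control range. The log2 fold change was −0.17 (SE 0.17, adjusted p = 0.748 in edgeR), from means of 67.9 ± 9.12 and 60.5 ± 5.30 CPM (SD, n = 3 each). Without control C, the highest library, it was −0.07. The per-kilobase ratio of *Sun1* to *Sun2* was 0.523 ± 0.0737 in control and 0.491 ± 0.00781 in miDrp1KO muscle (SD, n = 3 each), a difference smaller than the control SD.

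Nesprin-1, encoded by *Syne1*, is the giant KASH protein known for holding nuclei in place at and between neuromuscular junctions. The gene spans 530501 bases of chromosome 10 (5020192 to 5550692, minus strand), with 40491 bases of exon. *Syne1* was at 137, 119 and 129 CPM in control B, C and D and at 114, 106 and 71.0 CPM in miDrp1KO A, E and F. After TMM scaling, every miDrp1KO library was below every control, with F far below A and E. The means were 128 ± 9.02 and 96.9 ± 22.8 CPM (SD, n = 3 each; exact permutation test, two-sided, p = 0.1). In edgeR the log2 fold change was −0.41 (SE 0.20, adjusted p = 0.496, interval 0.555 to 1.03 times control), and DESeq2 gave −0.42 (adjusted p = 0.295). It moved to −0.20 without miDrp1KO F, to −0.51 without A, and to −0.23 with a correction for exon length and base composition, and over 13 alternatives the adjusted p ran from 0.233 to 0.889.

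Among the 109 tested genes with at least 20 kb of exon, the median log2 fold change was −0.13 and 67.9% were lower in miDrp1KO muscle, while among the 1874 genes under 2 kb the median was 0.13 and 35.8% were lower. *Syne1* and *Syne2* both belong to the longest class, and the part of length in their values was not tested beyond the correction above. Gene counts cannot separate the giant *Syne1* isoforms from the short ones that start near the most downstream promoter printed above. On the same chromosome *Esr1* ends 14558 bases before *Syne1* and had the highest log2 fold change of all tested genes (3.87, adjusted p = 1.07e-04 in edgeR), opposite in sign to *Syne1*; MerCreMer contains oestrogen receptor sequence, which these counts do not separate from *Esr1*.

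Nesprin-2, encoded by *Syne2* (chromosome 12, 75818318 to 76110928, plus strand, 26726 bases of exon), acts with nesprin-1 in anchoring nuclei and binds kinesin and dynein. *Syne2* was at 92.0, 76.9 and 78.7 CPM in control B, C and D and at 69.4, 80.8 and 59.3 CPM in miDrp1KO A, E and F. miDrp1KO E lay inside the control range, and A and F below it. The log2 fold change was −0.24 (SE 0.17, adjusted p = 0.639 in edgeR), with means of 82.5 ± 8.22 and 69.8 ± 10.7 CPM (SD, n = 3 each). It moved to −0.11 with that length correction, to −0.12 without miDrp1KO F, to −0.14 without control B and to −0.36 without miDrp1KO E.

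Nesprin-3, encoded by *Syne3* (chromosome 12, 104929933 to 105010587, minus strand), lacks the actin-binding domain of its relatives and binds plectin. *Syne3* was at 6.96, 9.84 and 7.80 CPM in control B, C and D and at 8.31, 10.1 and 11.8 CPM in miDrp1KO A, E and F. miDrp1KO E and F were above all controls, and A lay among them. The log2 fold change was 0.31 (SE 0.20, adjusted p = 0.609 in edgeR), with means of 8.20 ± 1.48 and 10.1 ± 1.75 CPM (SD, n = 3 each) and an interval from 0.905 to 1.69 times control. It stayed above 0 in all 13 alternatives, from 0.20 without miDrp1KO F to 0.45 without A.

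The balance between the nesprins was also set per kilobase of exon. The ratio of *Syne1* to *Syne3* was 2.70, 1.66 and 2.27 in control B, C and D and 1.87, 1.43 and 0.824 in miDrp1KO A, E and F. miDrp1KO A overlapped the controls, whereas E and F lay below them, and F was the only library with more *Syne3* than *Syne1* per kilobase. The ratio of *Syne1* to *Syne2* was 1.03 ± 0.0509 in control and 0.913 ± 0.151 in miDrp1KO muscle (SD, n = 3 each). A kilobase scale over all annotated exons understates a gene whose short isoforms predominate.

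**Figure D2:**
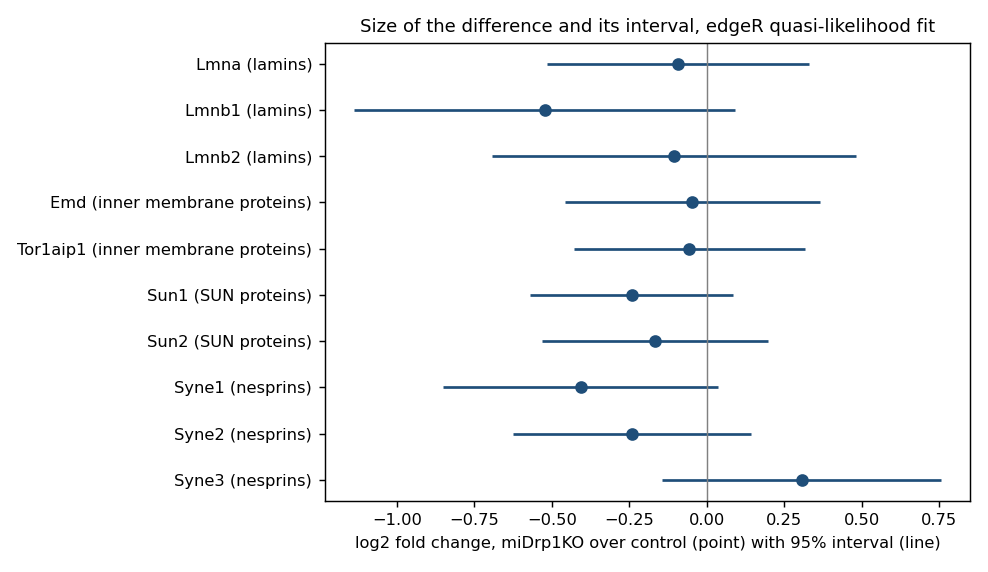
Log2 fold change of each gene, miDrp1KO over control (x axis), from edgeR's quasi-likelihood fit, as a point with its 95% interval as a line; genes are ordered by role from lamins to nesprins. Every interval spans 0, and those of *Sun1*, *Lmnb1* and *Syne1* reach least far above it.

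In control muscle the levels per kilobase of exon ran over more than an order of magnitude. *Sun2* came first at 12.5 ± 1.68 CPM per kb and *Tor1aip1* next at 11.1 ± 0.930, followed by *Lmna* at 8.16 ± 1.56 and *Emd* at 7.91 ± 0.744 (SD, n = 3 each). *Sun1* stood at 6.48 ± 0.216, *Syne1* at 3.17 ± 0.223 and *Syne2* at 3.09 ± 0.308. *Lmnb1* at 2.25 ± 0.317, *Syne3* at 1.48 ± 0.267 and *Lmnb2* at 0.691 ± 0.0856 closed the order. The control ranges of neighbours overlapped for *Sun2* and *Tor1aip1*, for *Lmna* and *Emd* and for *Syne1* and *Syne2*, and were apart for the other neighbours. In miDrp1KO muscle the means were 11.2 for *Sun2*, 10.7 for *Tor1aip1*, 7.66 for *Lmna*, 7.68 for *Emd* and 5.48 for *Sun1* CPM per kb. Those of the low members were 2.39 for *Syne1*, 2.61 for *Syne2*, 1.57 for *Lmnb1*, 1.82 for *Syne3* and 0.634 for *Lmnb2*. Compared with control, the means of neighbours changed places for *Lmna* and *Emd*, for *Syne1* and *Syne2*, and for *Lmnb1* and *Syne3*. Their SDs in miDrp1KO muscle were 1.32 and 1.66, 0.563 and 0.402, and 0.630 and 0.315, in turn (n = 3 each). In each pair the difference between the miDrp1KO means was smaller than either SD.

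The members did not vary between mice as a block. miDrp1KO F held the lowest level of 4 of them (*Lmnb1*, *Sun1*, *Syne1* and *Syne2*) and the highest of *Emd* and *Syne3*. miDrp1KO E was lowest for *Emd*, *Tor1aip1* and *Sun2*, and A was lowest for *Lmna* and *Lmnb2* and highest for *Tor1aip1*. Among controls, B was highest for *Lmnb2*, *Syne1* and *Syne2* and lowest for *Syne3*. As a description over 6 libraries, the most similar pair was *Sun2* and *Tor1aip1*, whose log2 CPM, each centred on its own mean, differed by a root mean square of 0.0962. *Syne1* and *Syne2* were closest to each other among members, at 0.168.

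Measured the same way against all tested genes with a mean of at least 10 CPM, the nearest gene was *Spag9* for *Syne1* (0.0396, log2 fold change −0.35), *Stox2* for *Syne2* (0.0373) and *Ndufaf5* for *Syne3* (0.050). For the SUN genes it was *G3bp1* for *Sun1* (0.0217) and *Exoc5* for *Sun2* (0.0158). For the lamins and inner membrane genes it was *Atf1* for *Lmna* (0.0578), *Atp8a1* for *Lmnb1* (0.0608), *Stx3* for *Lmnb2* (0.0599), *Fam53a* for *Emd* (0.0217) and *Efcab14* for *Tor1aip1* (0.0321). Each is the best match among all genes above that level, over 6 libraries.

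**Figure D3:**
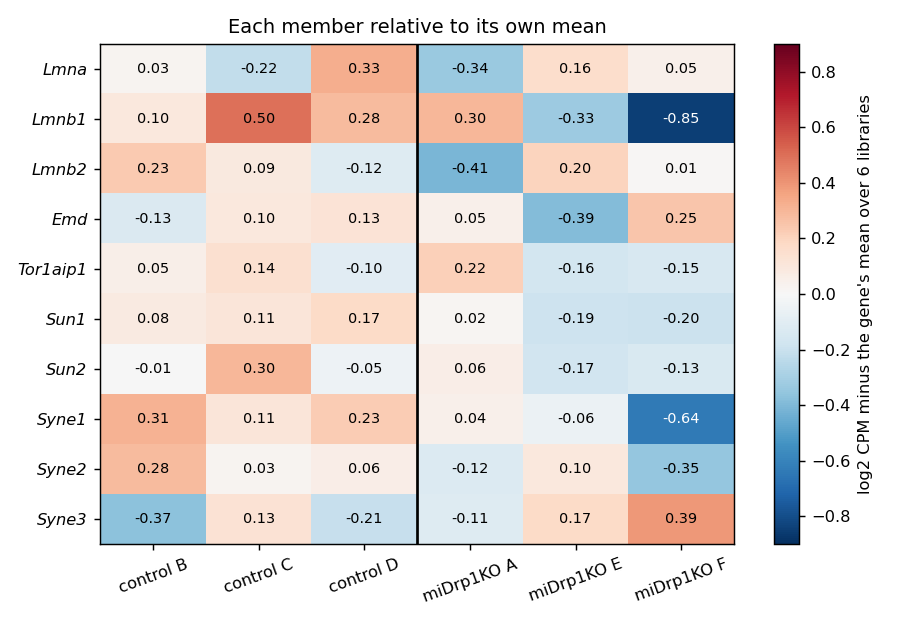
Log2 CPM of each gene minus its own mean over the 6 libraries (colour and printed value; red above the mean, blue below), with genes in rows and libraries in columns and a black line between control and miDrp1KO. The lowest values are those of *Lmnb1* (−0.85) and *Syne1* (−0.64) in miDrp1KO F, in which *Emd* and *Syne3* are at 0.25 and 0.39.

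On the outside of the nucleus, nesprins meet motors, anchors and filaments. Of 16 tested genes for motors, centrosomal proteins that move to the nuclear surface in muscle, and cytolinkers, 15 had a log2 fold change below 0, with a median of −0.44 against 0.02 over all tested genes. At an unadjusted p under 0.05 in edgeR 8 were lower and 0 higher, where 6.22% and 4.68% of all tested genes were, and 0 passed the adjusted threshold. In 9 the miDrp1KO libraries all lay below the controls, against 10.3% of all tested genes. DESeq2 gave 13 of them an adjusted p and called 3 lower, *Dctn1*, *Klc2* and *Plec*, where 2.14% of the 4431 genes it gave an adjusted p were called lower. These 3 were also the genes with the lowest p of the list in edgeR. The list was chosen with earlier results of these data known, so its counts beside the shares of all tested genes are a description only.

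*Plec* encodes plectin, the cytolinker that nesprin-3 binds. *Plec* was at 768, 542 and 568 CPM in control B, C and D and at 305, 330 and 137 CPM in miDrp1KO A, E and F, with a wide gap between the groups. The means were 626 ± 123 and 257 ± 105 CPM (SD, n = 3 each), a log2 fold change of −1.28 (SE 0.32, adjusted p = 0.362 in edgeR and 0.00348 in DESeq2). Its partner *Syne3* had a fold change of the opposite sign. *Dst*, which encodes the related cytolinker dystonin, went from 1743 ± 279 to 911 ± 437 CPM (SD, n = 3 each), with every miDrp1KO library below every control (log2 fold change −0.94, adjusted p = 0.416 in edgeR).

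*Dctn1* encodes p150glued, the dynactin subunit that links dynein to its cargo. *Dctn1* was at 100.1, 80.8 and 96.3 CPM in control B, C and D and at 54.6, 47.7 and 30.8 CPM in miDrp1KO A, E and F. The lowest control was well above the highest miDrp1KO library, and the log2 fold change was −1.06 (SE 0.22, adjusted p = 0.362 in edgeR and 0.00348 in DESeq2). *Klc2*, a light chain of kinesin-1, the motor that spaces nuclei through a nesprin motif, was at 37.0 ± 3.87 CPM in control and 23.5 ± 1.32 CPM in miDrp1KO muscle (SD, n = 3 each), also with no overlap (log2 fold change −0.66, adjusted p = 0.362 in edgeR and 0.0431 in DESeq2). The other kinesin-1 and dynein genes did not pass either tool. Their log2 fold changes were −0.61 for *Dync1h1*, the dynein heavy chain, −0.36 for the light chain gene *Klc1* and −0.35 for the heavy chain gene *Kif5b*, each with no overlap between the groups. *Akap6*, which encodes the scaffold that nesprin-1 holds at the envelope, was at −0.49 with no overlap, and *Pcnt*, for pericentrin, was at −0.58 with overlap (adjusted p = 0.464 and 0.445 in edgeR). At the other end were *Pcm1*, for a centriolar satellite protein, at −0.13, *Cdk5rap2* at −0.07 and *Camsap2*, which caps microtubule minus ends, at 0.05.

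The count of 8 partner genes at an unadjusted p under 0.05 varied with the libraries and the scaling, as did that of all tested genes, which was 1796. Without control D it was 3 (951 of all genes), without control B 4 (1553), without miDrp1KO F 5 (1337) and without miDrp1KO A 10 (3115). It was 3 when each library's ribosomal RNA share entered the fit (1375), 5 with upper quartile normalization (1831) and 10 with that length correction (1884). *Plec*, *Dctn1* and *Klc2* kept their sign in all 13 alternatives, *Plec* between −1.51 and −0.96, *Dctn1* between −1.21 and −0.83 and *Klc2* between −0.76 and −0.57. In the partner list 8 of 16 genes have at least 10 kb of exon. *Dst* has 41155 bases, *Plec* 18113, *Dctn1* 6509 and *Klc2* 4134, and the part of length in their values was not tested beyond the correction.

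**Figure D4:**
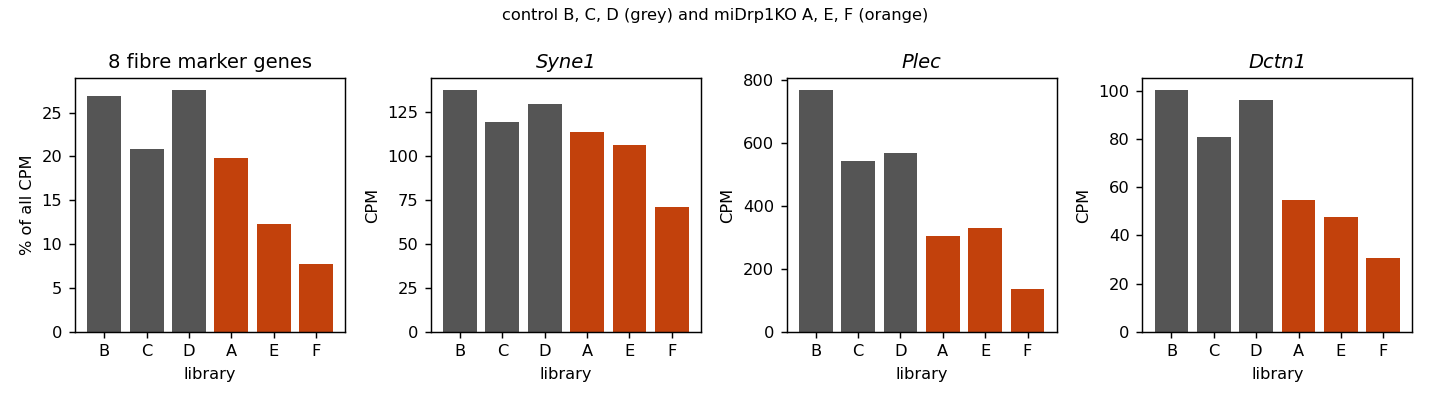
From left to right, the sum of 8 fibre marker genes (% of the TMM-scaled library size), and the CPM of *Syne1*, *Plec* and *Dctn1*. Bars from 0 stand for control B, C and D (grey) and miDrp1KO A, E and F (orange). In each panel the 3 miDrp1KO bars are below the 3 control bars and miDrp1KO F is the lowest.

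On TMM-scaled library sizes, the summed fibre markers had the same order in miDrp1KO muscle, A above E above F, as *Syne1* and *Dctn1*. Library F was lowest for each. The order of A and E depends on their TMM factors, 0.846 and 1.42, in that sum and in *Syne1* and *Dctn1* alike. On total counts alone, E would lie above A in each of them. *Plec* was lower in A (305 CPM) than in E (330 CPM), and *Klc2* was lowest in E (22.3 CPM). *Ttn*, the most abundant of the 8, was at 104110, 66485 and 26349 CPM in A, E and F, but the order of the sum did not hold for every marker. *Acta1* was at 13221, 8245 and 14183 CPM and *Ckm* at 11673, 6557 and 12585 CPM, both highest in F among the miDrp1KO libraries. The part of the fibre markers in the levels of *Syne1* and of the partner genes was not tested. Among genes that mark other cells, 4 of 6 for dividing cells were tested, all 4 had a higher mean in miDrp1KO muscle, and the sum of these 4 ran from 13.0 to 15.7 CPM in control and from 16.1 to 19.7 CPM in miDrp1KO muscle. The 5 adipocyte markers all had a lower mean, with a sum of 300.6 to 421 CPM in control and 226 to 275 CPM in miDrp1KO muscle. The sums of the satellite cell, endothelial, fibroblast, macrophage, Schwann cell and smooth muscle lists overlapped between the groups, although single genes within them did not all do so. Of the 6 macrophage markers 4 had a log2 fold change above 0 and 2 below, *Adgre1* at −0.05 and *Mrc1* at −0.01. In edgeR 2 had an unadjusted p under 0.05, both higher, where 4.68% of all tested genes were higher and 6.22% lower. The first was *C1qa*, from 17.4 ± 5.29 to 27.0 ± 1.30 CPM with no overlap (SD, n = 3 each, adjusted p = 0.382 in edgeR). The other was *C1qb*, from 1.59 ± 0.711 to 3.64 ± 1.38 CPM with overlap (SD, n = 3 each, adjusted p = 0.379 in edgeR). *Cd68* was higher in each miDrp1KO library than in each control (log2 fold change 0.59, adjusted p = 0.467 in edgeR). So was the satellite cell marker *Chodl*, the 1 gene of its list at that threshold (log2 fold change 0.53, adjusted p = 0.393 in edgeR). Of the 5 satellite cell markers 4 had a log2 fold change above 0 and 1 below. At an unadjusted p under 0.05 in edgeR there were also 2 dividing cell markers, both higher, and 2 adipocyte and 2 fibre markers, all lower. Of all tested genes 4.68% were higher and 6.22% lower at that threshold. No marker list had all its genes at 0. What these cells contribute to the lamin and LINC levels was not tested.

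Inside the envelope, 23 of 26 other nuclear envelope genes were tested, and 15 had a log2 fold change below 0 and 8 above, with a median of −0.08. At an unadjusted p under 0.05 in edgeR 2 were lower and 1 higher, where 6.22% and 4.68% of all tested genes were, and 0 passed the adjusted threshold. The groups did not overlap in 2 lower genes and 1 higher gene, against 10.3% and 7.67% of all tested genes. DESeq2 gave an adjusted p to 10 of the 23, *Lrmp* and *Tmem43* not among them, and called 0. *Lrmp*, which encodes the KASH protein known as KASH6 or JAW1, was at 2.08, 2.04 and 1.68 CPM in control B, C and D and at 2.77, 3.16 and 4.08 CPM in miDrp1KO A, E and F. Its groups did not overlap (log2 fold change 0.80, SE 0.27, adjusted p = 0.387 in edgeR). *Tmem43*, for the emerin-binding protein LUMA, had a log2 fold change of −0.43 (adjusted p = 0.444 in edgeR) with overlapping groups. *Narf*, whose product binds farnesylated prelamin A, went from 200 ± 9.90 to 153 ± 18.6 CPM (SD, n = 3 each) with no overlap (−0.39, adjusted p = 0.452 in edgeR). The muscle envelope genes *Tmem38a*, *Plpp7* and *Mlip*, the last for a lamin-interacting protein, were at −0.0039, 0.22 and 0.15, and *Lbr*, *Tmpo* and *Lemd3*, which encode the lamin B receptor, LAP2 and MAN1, at −0.12, −0.11 and −0.11.

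Prelamin A and the B-type lamins are farnesylated, lamin C is not, and prelamin A is then cleaved. Of the 5 processing enzymes 4 had a log2 fold change below 0, with a median of −0.13, and 0 passed the adjusted threshold in edgeR, while 1 was lower at an unadjusted p under 0.05 (6.22% of all tested genes). This was *Icmt*, the carboxyl methyltransferase, at 22.8 ± 0.776 CPM in control and 17.0 ± 2.27 CPM in miDrp1KO muscle (SD, n = 3 each), with no overlap (log2 fold change −0.42, SE 0.16, adjusted p = 0.402 in edgeR). *Fnta*, a farnesyltransferase subunit, was at −0.16 and *Zmpste24*, the prelamin A protease, at −0.12, both with overlapping groups.

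Nuclear pores cross the same envelope. Of 29 nucleoporin genes 25 had a log2 fold change below 0, with a median of −0.09, 3 were lower and 0 higher at an unadjusted p under 0.05 in edgeR (6.22% and 4.68% of all tested genes), and 0 passed the adjusted threshold. The count of 3 became 1 without control D, without miDrp1KO F or with the ribosomal RNA share in the fit, and 6 without miDrp1KO A. All tested genes at that threshold numbered 951, 1337, 1375 and 3115 in these settings, in turn. In 3 nucleoporin genes the miDrp1KO libraries all lay below the controls, against 10.3% of all tested genes. DESeq2 gave 9 of the 29 an adjusted p and called 0 of these. *Nup210*, for a membrane nucleoporin that works in muscle differentiation, was at 25.0, 26.0 and 26.4 CPM in control B, C and D and at 20.5, 16.6 and 12.4 CPM in miDrp1KO A, E and F. These groups did not overlap (log2 fold change −0.64, SE 0.19, adjusted p = 0.379 in edgeR, 0.0837 without miDrp1KO A and up to 0.877 in other alternatives). *Nup214*, of the cytoplasmic side of the pore, was at −0.50 with no overlap, and the mRNA export factor gene *Gle1* at −0.44 with overlap (adjusted p = 0.418 and 0.416 in edgeR). Leaving out miDrp1KO F moved *Nup214* to −0.28, and leaving out miDrp1KO E moved it to −0.65.

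Force passed along actin and the LINC complex is known to act on the MRTF-SRF and YAP transcription pathways. Of 19 genes of these pathways and their targets, 9 were below 0 and 10 above, with a median of 0.08, and 0 passed the adjusted threshold in edgeR. DESeq2 gave 10 of the 19 an adjusted p and called 0 of those. *Srf*, the transcription factor itself, went from 93.7 ± 4.04 to 61.9 ± 9.43 CPM (SD, n = 3 each) with no overlap (log2 fold change −0.60, SE 0.17, adjusted p = 0.368 in edgeR and 0.0610 in DESeq2). *Yap1* was at −0.41 and *Ier3*, an immediate-early gene, at 0.74, both with no overlap (adjusted p = 0.415 and 0.379 in edgeR). In edgeR 3 were lower and 1 higher at an unadjusted p under 0.05 (6.22% and 4.68% of all tested genes), and the same numbers had no overlap between the groups (10.3% and 7.67%). The third lower gene was *Vcl*, which encodes vinculin, from 72.7 ± 8.14 to 52.6 ± 11.7 CPM (SD, n = 3 each) with no overlap (log2 fold change −0.47, adjusted p = 0.431 in edgeR). Other target genes, named like *Vcl* after their values were seen, had overlapping groups and lay on both sides of 0: *Ctgf* at 0.53, *Tagln* at 0.32, *Cyr61* at 0.13, *Ankrd1* at −0.09 and *Cnn1* at −0.67.

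**Figure D5:**
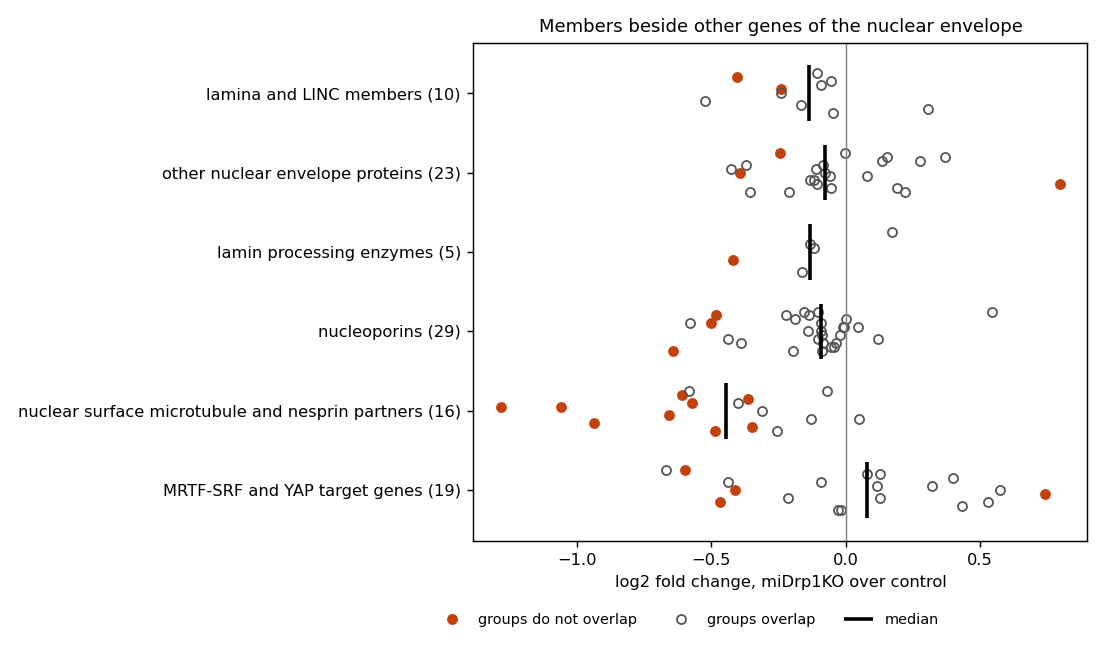
Log2 fold change, miDrp1KO over control (x axis), of each tested gene of the members and of 5 related lists (rows, with the number of genes); filled orange points are genes whose groups do not overlap, open points the others, and black bars the medians. The median of the nuclear surface list is −0.44, and the other medians lie between −0.14 and 0.08. The lists were chosen with earlier results of these data known.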

How the data were processed

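Per the labels and the study's methods, quadriceps RNA was made into stranded, ribosomal RNA-depleted libraries, and the authors aligned the reads to GRCm38 and counted them per gene with Rsubread. The deposited unit is raw counts, 1 file per library, for 27179 genes by Entrez identifier. How multimapped or overlapping reads were counted, and which library was in which sequencing pool, is not given in the sources used here. The submitters' processing notes name FastQC and DESeq2 1.30.0.

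Here counts were analysed in R 4.3.3 with edgeR 4.0.16 (filterByExpr, TMM, robust quasi-likelihood test, Benjamini-Hochberg adjustment over 16483 genes, threshold 0.05), a step tested on simulated data. The test compared 3 control with 3 miDrp1KO libraries without covariates. Totals were 25170274, 13989588 and 62042255 counts in control B, C and D and 24348524, 28829756 and 20028624 in miDrp1KO A, E and F. Single values were also compared by exact permutation over mice. Centred log2 CPM used a prior count of 2. The correction for length and GC content covered 89.9% of tested genes. The 13 alternatives were DESeq2 1.42.0, limma 3.58.1 (voom), RLE and upper quartile scaling, no low-count filter, each library's ribosomal RNA share as a covariate, the length and GC correction, and each library left out.

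Members and gene lists were chosen with earlier results of these data known. Named genes were the members, *Dnm1l*, the 3 genes with the lowest p of each list and the gene closest in pattern to each member; others were named after their values were seen. The split by exon length was added after seeing the data.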

Additional observations from a re-analysis of the deposited data

How the results depend on the processing

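Over 13 alternatives, 118 of 130 member log2 fold changes kept their sign, and 0 passed the adjusted threshold (lowest adjusted p = 0.149 in edgeR, *Lmnb1* without miDrp1KO A). *Lmnb1*, *Sun1*, *Sun2*, *Syne1*, *Syne2* and *Syne3* kept their sign in all 13. The others reversed in 12 values, all near 0: with upper quartile normalization, *Lmna* 0.0016, *Emd* 0.046 and *Tor1aip1* 0.030, and when each library's ribosomal RNA share entered the fit, *Lmna* 0.0055. Leaving out 1 library gave −0.24 to 0.084 for *Lmna*, −0.26 to 0.072 for *Lmnb2*, −0.18 to 0.12 for *Emd* and −0.17 to 0.023 for *Tor1aip1*. The median of the 10 members moved to −0.045 with upper quartile normalization, which moved the median of all tested genes from 0.02 to 0.11. The number of members at an unadjusted p under 0.05 ran from 0 to 2 without 1 library, the 2 being without miDrp1KO A, where all tested genes at that threshold numbered 3115 (1796 with all libraries, 951 without control D). With 1 library left out, the count of other nuclear envelope genes at that threshold, 3 with all libraries, ran from 1 to 4. That of the MRTF-SRF and YAP list, 4 with all libraries, ran from 2 to 6, and that of the processing enzymes from 0 to 1. The cause of these moves was not tested. With 3 mice a group, the intervals of all 10 members spanned 0, and those of *Lmnb1* and *Lmnb2* rest on the fewest counts. No paired analysis was possible because control and miDrp1KO libraries have no replicate label in common.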
